A study of Homo sapiens with 10 samples.

Results

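The annexins described here are ANXA1, ANXA2, ANXA3, ANXA4, ANXA5, ANXA6, ANXA7 and ANXA11, 8 genes chosen by name. Every probe set whose platform annotation gives 1 of these symbols alone was taken, which gave 17 of the 54630 probe sets of the deposited table. ANXA2 is read by 4 of them, ANXA11 by 3, ANXA1, ANXA4, ANXA6 and ANXA7 by 2 each, and ANXA3 and ANXA5 by 1 each. The study measured total RNA of K562 cells, an established human chronic myeloid leukaemia line, and of the microvesicles these cells release into the medium. Biotinylated cRNA was made from 100 ng of RNA per sample and read on Affymetrix arrays, 5 of cells and 5 of microvesicles from 5 independent experiments. No treatment, time point or genetic change separates the groups, and the labels do not say how the microvesicles were purified or whether a cell and a microvesicle sample with the same number share a culture. If they do not come from separate cultures, p-values measure only the spread between these samples. The comparison asks how the annexin RNA of microvesicles differs from that of the parent cells.

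Annexins are soluble proteins that bind acidic phospholipids, above all phosphatidylserine, when calcium rises. All share a conserved core that holds the calcium and membrane sites and differ in the amino-terminal part, where partner proteins of the S100 and related EF-hand families attach. In cells they take part in membrane repair, vesicle traffic and the link between membrane and actin, and annexin A5 is the usual stain for phosphatidylserine on dying cells and on shed vesicles. The arrays measured their mRNA, not the proteins.

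Each value is the RMA summary of a probe set on a log2 scale, so a difference of 1 is 2-fold. A probe set passed at a limma p under 0.05 after Benjamini-Hochberg adjustment over all 54613 probe sets that are not controls. Array medians were 4.08 to 4.12 in cells and 4.22 to 4.28 in microvesicles, and probe sets within an array spread with an SD of 2.33 to 2.36 in cells and 1.89 to 1.99 in microvesicles. ACTB controls read at the 3' end exceeded those read at the 5' end, a gap that is wider where RNA is less intact. This ACTB gap was 2.26 to 2.57 in cells and 2.72 to 3.64 in microvesicles, without overlap. The same gap of the GAPDH controls overlapped (0.37 to 0.54 and 0.50 to 0.83). The part of these gaps in the annexin results was not tested. Of 8 K562 erythroid markers read here, 7 had a mean above 6 in cells and 8 in microvesicles. Above 6 stood 0 of 6 platelet markers in cells and 1 in microvesicles, 0 of 4 monocyte markers in both, 1 of 5 lymphocyte markers in both and 1 of 6 fibroblast or endothelial markers in both. Of 5 epithelial markers 4 stood above 6 in both groups. The mean level of the K562 list was 8.52 to 8.72 in cells and 8.05 to 8.46 in microvesicles, and that of the epithelial list 7.52 to 7.87 and 6.92 to 7.30, both lower in microvesicles without overlap. Higher without overlap were the platelet list (3.89 to 4.03 and 4.38 to 4.75), the lymphocyte list (4.47 to 4.82 and 4.89 to 5.31) and the fibroblast or endothelial list (4.04 to 4.27 and 4.60 to 5.40). The monocyte list overlapped (3.37 to 3.83 and 3.71 to 4.46). No such share was counted for other lists, but the groups did not overlap in 45.9% of all single probe sets. The median change of all probe sets was 0.48 for means between 3 and 4 and 0.25 between 4 and 5. It was -1.01 for means between 7 and 8 and -0.79 between 8 and 9. The part of such markers in the annexin results was not tested.

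Most annexin probe sets were lower in microvesicles than in cells. Of 17, 10 fell, 1 rose and 6 did not pass, with a median change of -0.45 on the log2 scale. Over all probe sets 62.4% passed, 27.0% lower and 35.4% higher, and the median change was 0.27. These shares are not matched for level. Among probe sets with a mean of at least 6 in either group, 10 of 13 annexin probe sets fell, with a median of -0.66. Of all 15230 such probe sets 10224 fell, with a median of -0.92. A probe set can pass this filter through only the group where it is higher, so these values are not matched for level either. As deposited, ANXA4 and ANXA5 fell by more than 2-fold in every probe set they have, as did 1 probe set each of ANXA1, ANXA7 and ANXA11. The brightest probe sets of ANXA1, ANXA2, ANXA7 and ANXA11 had smaller changes, between -0.21 and -0.66. In bulk RNA fewer cells of a type and less RNA per cell cannot be told apart, and neither can the number of vesicles and the RNA in each.

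These counts depended on the scaling of the arrays. Changes over all probe sets followed the level, with a median of 0.59 for means between 2 and 3, -1.0 between 6 and 7 and -0.32 between 11 and 12. After loess normalization by level, which removes that trend from each array, 6 annexin probe sets fell and 2 rose, with a median of 0.053, where 22.2% of all probe sets fell and 19.4% rose. After a second quantile normalization 5 fell and 1 rose, with a median of -0.08, against 18.5% and 18.8% of all probe sets. With each array centred on its median 12 fell and 1 rose, where 16492 of all 54613 probe sets fell and 13032 rose. In all 4 scalings 4 annexin probe sets fell, those named 233011_at (ANXA1), 201302_at (ANXA4), 200782_at (ANXA5) and 201366_at (ANXA7). In all 4 scalings 1 rose, 228727_at (ANXA11). The sign of the change differed between scalings for 8 of the 17. How many of all probe sets kept a call or changed sign over the 4 scalings was not counted. Whether these counts set the annexins apart from other probe sets was not tested.

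**Figure D1:**
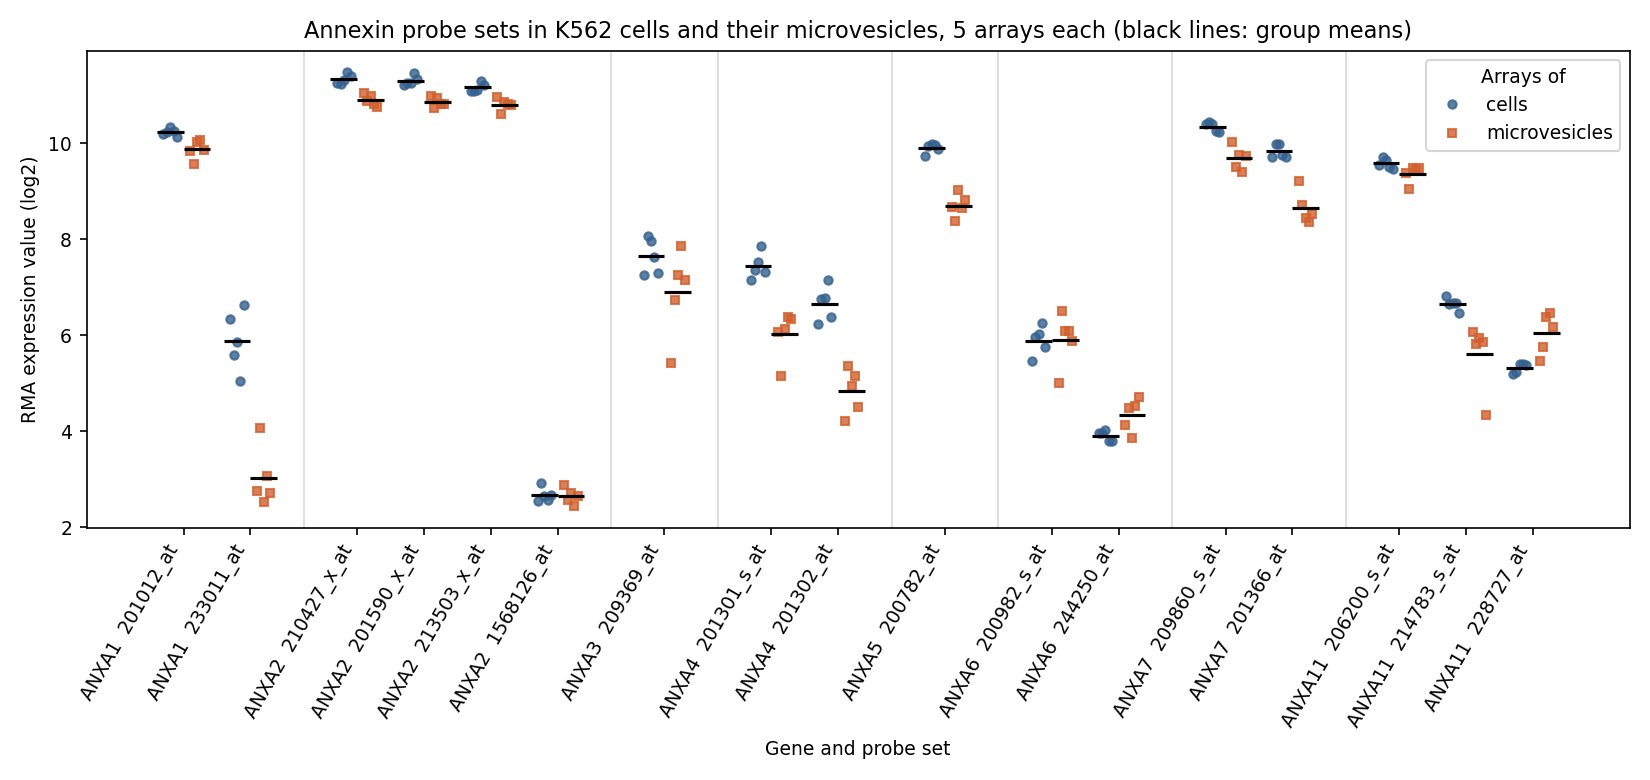
Log2 RMA value (vertical axis) of the 17 annexin probe sets (horizontal axis) in each array of cells (circles) and of microvesicles (squares), with black lines for the group means of 5 arrays. The microvesicle arrays of ANXA5 lie between 8.37 and 9.03, below all cell arrays (9.74 to 9.97), whereas those of ANXA3 spread from 5.43 to 7.85.

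**Figure D2:**
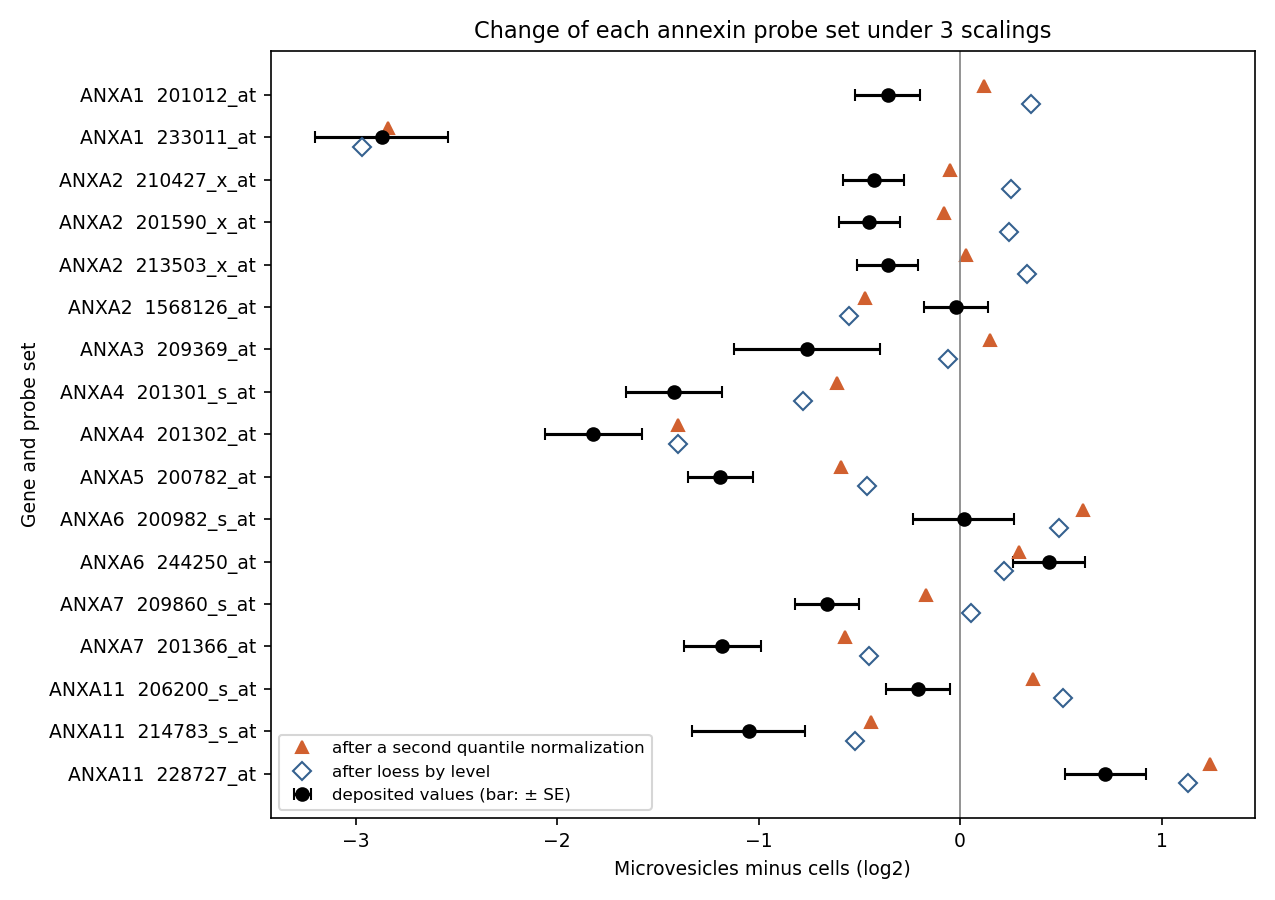
Change from cells to microvesicles on the log2 scale (horizontal axis) for each annexin probe set (vertical axis), as deposited (black, bars ± SE) and after a second quantile normalization (triangles) or loess by level (diamonds). The bright probe sets of ANXA1, ANXA2 and ANXA11 cross 0 or come near it with the scaling, while ANXA4 and ANXA5 stay on the lower side.

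ANXA5 and ANXA4, annexins with a short amino-terminal part, fell in every probe set they have as deposited, with 1 ANXA4 call lost after quantile normalization. ANXA5, the phosphatidylserine binder used as a stain, was read by 200782_at at 9.74, 9.94, 9.97, 9.96 and 9.87 in cells replicates 1 to 5. In microvesicles replicates 1 to 5 it was at 8.67, 8.37, 9.03, 8.65 and 8.81. Every microvesicle array lay below every cell array, and replicate 3 was the highest of its group in both. Cells averaged 9.90 ± 0.10 and microvesicles 8.70 ± 0.24 (SD, n = 5 each), which gives -1.19 ± 0.16 (SE), or 2.28-fold lower (limma adjusted p = 4.8e-05). The fall was smaller after loess by level (-0.46, limma adjusted p = 0.035) and on the quantile scale (-0.59, limma adjusted p = 0.0109).

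ANXA4 encodes an annexin of epithelial and secretory membranes and was read by 2 probe sets. The brighter, 201301_s_at, stood at 7.15, 7.35, 7.53, 7.86 and 7.32 in cells replicates 1 to 5 and at 6.06, 5.15, 6.14, 6.39 and 6.34 in microvesicles. The groups did not overlap, and microvesicles replicate 2 lay well below the other microvesicle arrays. It fell by 1.42 ± 0.24 (limma adjusted p = 0.000237), or 2.68-fold, a change within the quartiles of all probe sets of its level (-1.72 to -0.21). The call held after loess (-0.78, limma adjusted p = 0.0164) and was lost after quantile normalization (-0.61, limma adjusted p = 0.113). The dimmer, 201302_at, stood at 6.24, 6.76, 6.77, 7.14 and 6.39 in cells and at 4.22, 5.37, 4.95, 5.15 and 4.50 in microvesicles. In both groups replicate 1 was the lowest array here, and all microvesicle values lay under the cell range. This probe set fell by 1.82 ± 0.24 (3.54-fold, limma adjusted p = 3.62e-05), and by 1.40 after either renormalization. The changes of the ANXA4 probe sets differed by -0.40, less than the spread between arrays could resolve (exact permutation p = 0.341, adjusted p = 0.384).

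ANXA1 and ANXA2 are plasma membrane annexins that bind S100 proteins. ANXA1, known for its anti-inflammatory action through formyl peptide receptors, gave unlike answers in its 2 probe sets. In 201012_at the values were 10.19, 10.23, 10.34, 10.25 and 10.13 in cells replicates 1 to 5 and 9.84, 9.57, 10.02, 10.07 and 9.85 in microvesicles. The groups did not overlap, yet the change of -0.36 ± 0.16 missed the threshold (limma adjusted p = 0.0575). Its sign turned on the loess scale (0.35, limma adjusted p = 0.105) and the quantile scale (0.12, limma adjusted p = 0.579). It passed with arrays centred on their median (-0.52, limma adjusted p = 0.0137), without microvesicles replicate 3 (limma adjusted p = 0.047) and without microvesicles replicate 4 (limma adjusted p = 0.0319). It also passed with a variance trend and robust fitting (limma adjusted p = 0.0151), with a filter at a group mean of 6 (limma adjusted p = 0.0273) and in the exact rank sum test (adjusted p = 0.0172). In 233011_at ANXA1 stood at 6.33, 5.59, 5.86, 5.04 and 6.64 in cells and at 2.76, 4.07, 2.53, 3.07 and 2.71 in microvesicles. All 5 microvesicle values lay below the median of their own array, so the size of the fall is uncertain without a detection call. It was -2.87 ± 0.33 (7.29-fold lower, limma adjusted p = 1.02e-05) and -2.97 after loess, the largest change of any annexin probe set. Within arrays the change of 233011_at minus that of 201012_at was -2.51 (exact permutation p = 0.00794, adjusted p = 0.0179 over 9 pairs of probe sets). The mean of the ANXA1 probe sets, -1.61, therefore describes neither.

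ANXA2 forms a tetramer with S100A10 at the plasma membrane and was read by 3 bright probe sets and 1 dim one. The brightest, 210427_x_at, stood at 11.24, 11.23, 11.31, 11.47 and 11.40 in cells replicates 1 to 5 and at 11.05, 10.87, 10.97, 10.82 and 10.76 in microvesicles. The groups did not overlap but lay close, and the spread within each was small (SD 0.10 and 0.12, n = 5 each). As deposited it was 1.35-fold lower (-0.43 ± 0.15, limma adjusted p = 0.0207), a sign that loess reversed. The other bright ones were at -0.45 (201590_x_at, limma adjusted p = 0.0166) and -0.36 (213503_x_at, limma adjusted p = 0.0494). All 3 turned positive after loess, to 0.25, 0.24 and 0.33, with none past the threshold (limma adjusted p = 0.197, 0.225 and 0.0919). After quantile normalization they stood at -0.05, -0.08 and 0.031 and did not pass either. As deposited, 210427_x_at did not pass without cells replicate 4 (limma adjusted p = 0.0538) or 5 (limma adjusted p = 0.0528), and 213503_x_at passed in 2 of the 10 fits that each left out 1 array. The changes of the bright probe sets differed by -0.016 and 0.078, less than the spread between arrays (exact permutation p = 0.667 and 0.206).

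The ANXA2 probe sets named _x_at can bind related transcripts, and ANXA2 has processed pseudogenes that are nearly identical to it. ANXA2P2 is represented by 208816_x_at, with means of 8.82 ± 0.14 for cells against 8.72 ± 0.33 for microvesicles (SD, n = 5 each), and did not pass (-0.10 ± 0.18, limma adjusted p = 0.636). After loess it was at 0.63 (limma adjusted p = 0.00681). ANXA2P1 (210876_at), below the array median on 5 cell and 3 microvesicle arrays, rose by 1.08 ± 0.25 (limma adjusted p = 0.00239). After loess its change was 0.72 (limma adjusted p = 0.0272). ANXA2P3 (211241_at) did not pass (-0.10 ± 0.22, limma adjusted p = 0.696). How RNA of ANXA2 and its copies divide between these probe sets cannot be told from the table, so the ANXA2 values are uncertain to that extent. The dim probe set 1568126_at lay between 2.45 and 2.92 in all 10 arrays, below each array's median, and did not pass (-0.02 ± 0.16, limma adjusted p = 0.914). After loess it was at -0.55 (limma adjusted p = 0.0134), at a level not known to exceed background. A probe set annotated with SNU13 and ANXA2 together was not counted among the 17. It did not pass as deposited (-0.24 ± 0.17, limma adjusted p = 0.219) and was higher after loess (0.44, limma adjusted p = 0.0338).

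ANXA3 and ANXA6 did not pass. ANXA3, abundant in neutrophils, was read by 209369_at at 7.26, 8.07, 7.97, 7.62 and 7.29 in cells replicates 1 to 5 and at 5.43, 6.74, 7.25, 7.85 and 7.15 in microvesicles. The groups overlapped, and the microvesicle arrays spread over more than 4-fold. The change was -0.76 ± 0.36 (limma adjusted p = 0.0793). It was -0.062 on the loess scale and turned to 0.15 on the quantile scale. It passed without microvesicles replicate 4 (-1.0, limma adjusted p = 0.0237) and after centring on the median (-0.91, limma adjusted p = 0.0423). Without microvesicles replicate 1 it was at -0.39 (limma adjusted p = 0.18).

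ANXA6 is the annexin whose core is duplicated in 1 chain, and in 200982_s_at it stood at 5.47, 5.97, 6.02, 6.26 and 5.76 in cells and at 5.00, 6.51, 6.08, 6.08 and 5.88 in microvesicles. The microvesicle range enclosed that of the cells, with replicate 1 lowest in both groups. The change was 0.017 ± 0.25 (limma adjusted p = 0.954), 0.49 after loess and -0.14 after median centring, none past the threshold. Its dim probe set 244250_at, at 3.80 to 4.02 in cells and 3.86 to 4.72 in microvesicles, changed by 0.44 ± 0.18 (limma adjusted p = 0.0524). This passed without microvesicles replicate 1 (limma adjusted p = 0.0372) or 3 (limma adjusted p = 0.0129).

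ANXA7 and ANXA11 have long amino-terminal parts that bind the EF-hand proteins sorcin and PDCD6. ANXA7, also called synexin, fell in both of its probe sets as deposited. In 209860_s_at it stood at 10.39, 10.44, 10.39, 10.26 and 10.22 in cells replicates 1 to 5 and at 10.02, 9.51, 9.75, 9.39 and 9.73 in microvesicles. The groups did not overlap and microvesicles replicate 1 was nearest to the cells. The change was -0.66 ± 0.16 (1.58-fold lower, limma adjusted p = 0.00381), but 0.053 after loess and -0.17 after quantile normalization, not passed. In 201366_at the cell arrays stood at 9.70, 9.98, 9.98, 9.76 and 9.71 and the microvesicle arrays at 9.22, 8.72, 8.45, 8.36 and 8.52. Here too replicate 1 was the highest microvesicle array, and no array overlapped. The fall was 1.18 ± 0.19 (2.26-fold, limma adjusted p = 0.000156), and it held on the loess scale (-0.45, limma adjusted p = 0.0441) and the quantile scale (-0.57, limma adjusted p = 0.0164). The changes of the ANXA7 probe sets differed by -0.51 within arrays (exact permutation p = 0.00794, adjusted p = 0.0179).

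ANXA11, which also tethers RNA granules to lysosomes, was the annexin with probe sets past the threshold in opposite directions. The brightest, 206200_s_at, stood at 9.54, 9.72, 9.64, 9.51 and 9.47 in cells replicates 1 to 5 and at 9.37, 9.05, 9.48, 9.43 and 9.48 in microvesicles. The groups overlapped, and replicate 2 was the highest cell array and the lowest microvesicle array. The change of -0.21 ± 0.16 did not pass (limma adjusted p = 0.234) and turned to 0.51 after loess (limma adjusted p = 0.0201) and 0.36 after quantile normalization (limma adjusted p = 0.0864). In 214783_s_at ANXA11 stood at 6.81, 6.65, 6.67, 6.68 and 6.47 in cells and at 6.06, 5.82, 5.95, 5.86 and 4.33 in microvesicles. All microvesicle arrays were below the cells and replicate 5 was far below the rest. It fell by 1.05 ± 0.28 (limma adjusted p = 0.006), which did not pass after loess (-0.52, limma adjusted p = 0.13) or quantile normalization (-0.44, limma adjusted p = 0.349). In 228727_at it stood at 5.19, 5.24, 5.40, 5.40 and 5.38 in cells and at 5.46, 5.75, 6.37, 6.47 and 6.18 in microvesicles. All microvesicle arrays lay above the cells, replicate 1 only just. It rose by 0.72 ± 0.20 (1.65-fold, limma adjusted p = 0.00781), and by 1.13 after loess and 1.24 after quantile normalization. Relative to 206200_s_at the change of 214783_s_at was lower by 0.84 (difference -0.84) and that of 228727_at higher by 0.94 (exact permutation p = 0.00794 and adjusted p = 0.0179 for each). The annotation used here does not say which part of the transcript a probe set reads.

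Over all 6 annexins with more than 1 probe set, 5 of 9 within-gene differences passed the exact permutation test of arrays. The smallest p that 5 against 5 arrays can give is 0.00794. Besides those of ANXA1, ANXA7 and ANXA11 this included the dim ANXA2 probe set against the brightest (0.41, adjusted p = 0.0286), a difference that turned to -0.80 after loess.

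The groups of arrays did not overlap in 12 of the 17 annexin probe sets, against 45.9% of all probe sets. Of all probe sets, 18.0% fell by at least 2-fold, and 6 of the 17 annexin probe sets did so. Neither share of all probe sets is matched for level. Spread was larger in microvesicles for 15 of the 17, with a median SD of 0.10 in cells and 0.34 in microvesicles, where all probe sets had 0.15 and 0.46. Cells replicate 1 was the lowest cell array in 9 of the 17 and cells replicate 4 the highest in 7. Among microvesicles, replicate 2 was the lowest in 6, and replicate 1 was the highest in 7 and the lowest in 4. The 4 were those of ANXA3, ANXA4 (201302_at), ANXA6 (200982_s_at) and ANXA11 (228727_at).

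**Figure D3:**
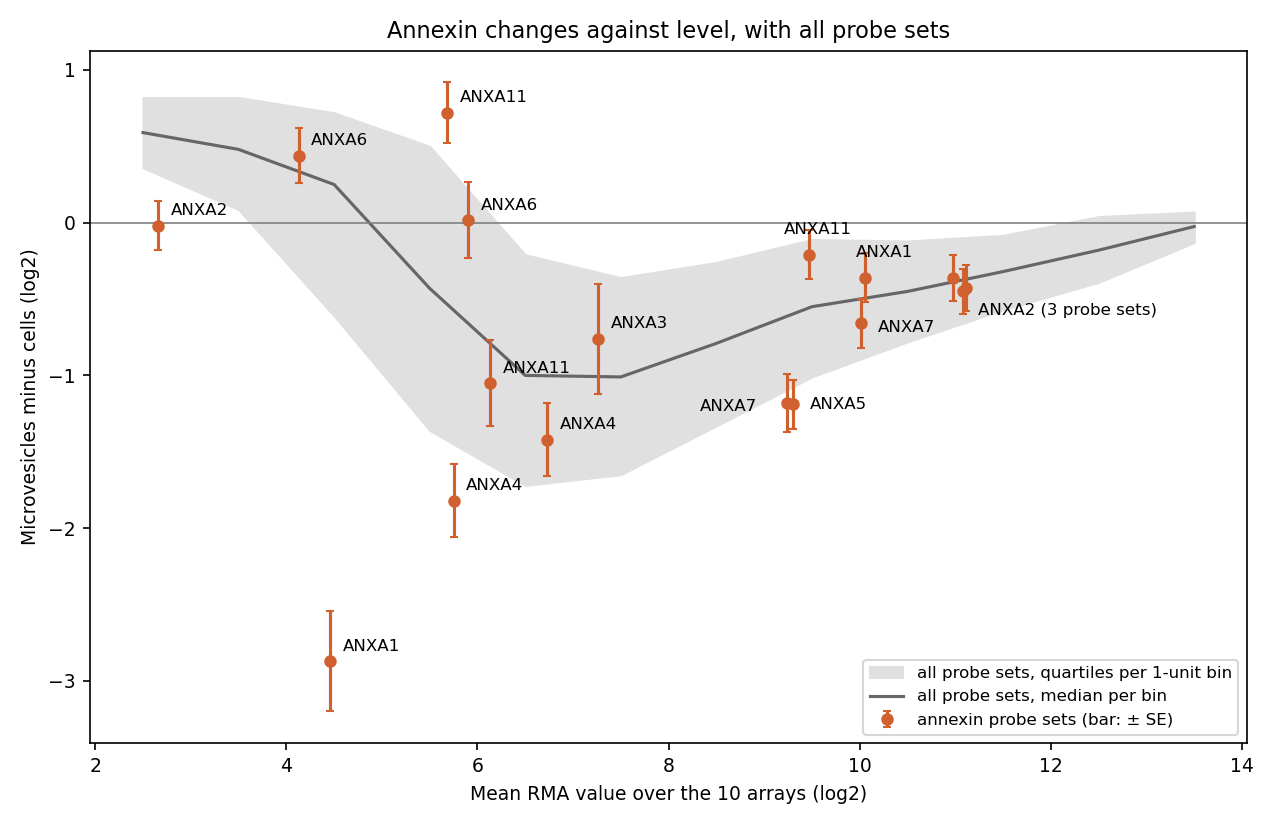
Change from cells to microvesicles on the log2 scale (vertical axis) against the mean value over the 10 arrays (horizontal axis) for the annexin probe sets (points, bars ± SE), with the median (line) and quartiles (band) of all probe sets in bins of 1 unit. ANXA5 (-1.19) and the ANXA7 probe set beside it (-1.18) lie below the lower quartile of their bin (-1.01). Below the lower quartile of their own bins lie also 233011_at of ANXA1 (-2.87, quartile -0.61) and 201302_at of ANXA4 (-1.82, quartile -1.36). The dim ANXA2 probe set does so too (-0.02, quartile 0.36). The bright ANXA2 probe sets lie inside the band, and 228727_at of ANXA11 lies above it.

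The annexins changed by different amounts. Each was read from its probe set with the highest mean, and the difference between 2 annexins was taken within each array, which removes any shift common to an array. Read this way 4 of the 8 fell (ANXA2, ANXA4, ANXA5 and ANXA7), against 30.8% of 19775 genes, and 0 rose, against 34.6% (5 genes had an unadjusted limma p under 0.05, all lower). The median over the 8 was -0.55 where that of all genes was 0.20. These values for all genes are not matched for level. Of 28 pairs, 10 differed in their change (exact permutation test, 2-sided, Benjamini-Hochberg over the 28 pairs). The change of ANXA1 minus that of ANXA5 was 0.83, and ANXA2 minus ANXA5 was 0.76. ANXA5 minus ANXA7 was -0.53, ANXA5 minus ANXA11 -0.98 and ANXA5 minus ANXA6 -1.21 (exact permutation p = 0.00794 and adjusted p = 0.0222 for all 5). All 5 passed after loess and after quantile normalization as well. ANXA4 lay below ANXA1 (ANXA1 minus ANXA4 1.06), ANXA2 (ANXA2 minus ANXA4 0.99), ANXA6 (-1.44) and ANXA11 (-1.21), again with an adjusted exact permutation p of 0.0222. The pair of ANXA2 and ANXA4 did not pass after quantile normalization (0.56, adjusted exact permutation p = 0.178). ANXA4 and ANXA5 were not told apart (-0.23, exact permutation p = 0.238, adjusted p = 0.317), nor were ANXA1 and ANXA2 (0.077, exact permutation p = 0.476). ANXA7 lay below ANXA11 (-0.45, adjusted exact permutation p = 0.0222).

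No pair with ANXA3 passed, and 1 had an unadjusted exact permutation p under 0.05 (ANXA3 minus ANXA6, -0.77, adjusted p = 0.0926). The number of pairs that passed was 5 without cells replicate 3, 5 without cells replicate 4 and 16 without microvesicles replicate 1. The pairs of ANXA1 with ANXA4 and ANXA5, of ANXA2 with ANXA5 and of ANXA11 with ANXA4 and ANXA5 passed in all 10 fits without 1 array. For probe sets of other levels within these genes the order differs, as the ANXA1 and ANXA11 values above show.

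**Figure D4:**
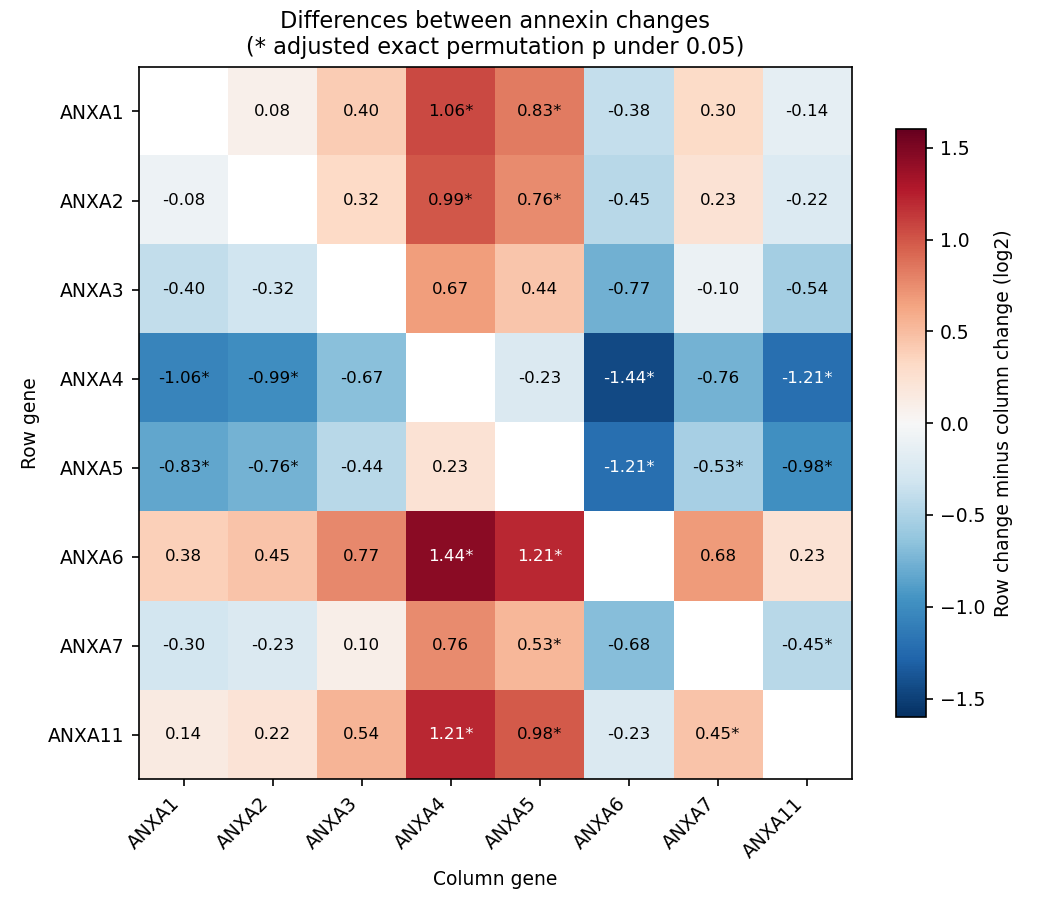
Difference between the changes of 2 annexins on the log2 scale, row gene minus column gene (colour and number), each read from its probe set with the highest mean, with * for an adjusted exact permutation p under 0.05. The rows of ANXA4 and ANXA5 hold negative, marked values against ANXA1, ANXA2, ANXA6 and ANXA11, the lowest being ANXA4 minus ANXA6 at -1.44.

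The annexin with the largest change in its brightest probe set was ANXA4. The genes whose values followed it most closely over the 10 arrays, by Pearson correlation, were SYNGR3 (0.991), KIAA0586 (0.981), ANKRD55 (0.981), ALG2 (0.979) and REEP6 (0.978). The arrays share the difference between groups, and 766 of 19767 genes had a correlation above 0.9. These values are a description with no test.

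Partners of the annexins did not share 1 direction. Of 24 other annexins, EF-hand partners, receptors, repair partners and phosphatidylserine exposure genes, 21 were read, and 6 fell, 6 rose and 9 did not pass, with a median change of 0.14. Over all genes 30.8% fell, 34.6% rose and the median was 0.20, so these shares are near those of all genes. After loess 5 fell and 11 rose, with a median of 0.59, and after quantile normalization 4 fell and 10 rose. Shares of genes were not counted on these scales. Of all probe sets 22.2% fell and 19.4% rose after loess, with a median of 0.03. After quantile normalization 18.5% fell and 18.8% rose. ANXA8 and ANXA8L1 share their probe sets and were not read.

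Among the other annexins ANXA10 rose by 1.11 ± 0.23 (limma adjusted p = 0.00107) and ANXA13 by 1.15 ± 0.20 (limma adjusted p = 0.00037). Both were dim. ANXA10 lay below the array median in all 5 microvesicle arrays and ANXA13 in 4, so neither is known to exceed background. ANXA9 did not pass, with 5.08 ± 0.21 against 4.84 ± 0.55 (SD, n = 5 each).

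Of 7 EF-hand partners 1 rose, 1 fell and 5 did not pass, where 34.6% of all genes rose and 30.8% fell. After loess 5 of the 7 rose and 1 fell, and the median went from 0.14 to 0.86. On that scale 19.4% of all probe sets rose and 22.2% fell, with a median of 0.03. S100A6, a calcium-binding partner of several annexins, rose by 0.87 ± 0.18, from 4.36 ± 0.21 in cells to 5.23 ± 0.27 in microvesicles (SD, n = 5 each, limma adjusted p = 0.00115). GCA, or grancalcin, fell by 0.89 ± 0.23 (limma adjusted p = 0.00498), with 4 of 5 microvesicle arrays below their median. S100A10, the ANXA2 partner, stood at 5.97, 6.48, 6.78, 7.31 and 6.91 in cells replicates 1 to 5 and at 5.71, 7.58, 7.41, 7.73 and 7.89 in microvesicles. Replicate 1 was the lowest array of both groups, and the other 4 microvesicle arrays lay above all cell arrays. Its change of 0.57 ± 0.37 did not pass (limma adjusted p = 0.186), but did without microvesicles replicate 1 (0.96, limma adjusted p = 0.00507) and after loess (1.24, limma adjusted p = 0.021). S100A4 did not pass, at -0.41 ± 0.21 as deposited and 0.33 after loess. S100A11, the ANXA1 partner, was at 0.15 ± 0.25, and 0.86 after loess (limma adjusted p = 0.017).

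The partners of ANXA7 and ANXA11 also turned with the scaling. PDCD6 was at -0.29 ± 0.16 as deposited (limma adjusted p = 0.127), -0.45 with median centring (limma adjusted p = 0.0324) and 0.42 after loess (limma adjusted p = 0.0335). SRI, which encodes sorcin, was at 0.14 ± 0.15 in its bright probe set (0.86 after loess, limma adjusted p = 0.000538). Its dim probe set fell by 1.30 ± 0.24 (limma adjusted p = 0.000423).

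The formyl peptide receptors of annexin A1 were dim, and the brighter probe set of each was higher in microvesicles. FPR2 rose by 1.92 ± 0.22, from 3.55 ± 0.22 to 5.47 ± 0.45 (SD, n = 5 each, limma adjusted p = 1.03e-05), and FPR1 rose by 0.75 ± 0.21 (limma adjusted p = 0.00771). The cell values lay below the array medians on 5 arrays for FPR2 and on 4 for FPR1, so the size of these rises is uncertain. The other FPR1 probe set did not pass (0.29, limma adjusted p = 0.2; -0.29 after loess), and the other FPR2 probe set rose as deposited (0.69, limma adjusted p = 0.028) but did not pass after loess (0.17, limma adjusted p = 0.638). ANXA2R, a putative annexin A2 receptor, fell by 0.59 ± 0.17 (limma adjusted p = 0.00954) but not after loess (-0.15) or quantile normalization (-0.076). The membrane repair genes DYSF (0.43 ± 0.33) and AHNAK (0.076 ± 0.25) did not pass, and AHNAK passed after loess (0.77, limma adjusted p = 0.018). The mean of the 5 AHNAK probe sets was higher by 0.83 (limma adjusted p = 0.000526).

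Genes that set the side of the membrane on which phosphatidylserine lies had 4 falls and 1 rise among 6 read, with a median of -1.68 and -0.97 after loess, where 30.8% of all genes fell and 34.6% rose. All probe sets with means between 7 and 8 had a median of -1.01, and the counts after loess, which removes that trend, were again 4 and 1. TMEM30A, the shared subunit of the flippases that keep phosphatidylserine inside, stood at 8.0, 8.75, 8.56, 8.37 and 8.15 in cells replicates 1 to 5 and at 6.17, 4.64, 6.08, 4.90 and 5.21 in microvesicles. No microvesicle array came near the cells, and the fall was 2.96 ± 0.29 (7.8-fold, limma adjusted p = 2.85e-06; -2.30 after loess). Its other probe sets fell by 3.85 and 2.96. The flippase gene ATP11A fell by 2.80 ± 0.33 in the brightest of 6 probe sets (limma adjusted p = 1.21e-05), while the mean of the 6 was at -0.16 and did not pass (limma adjusted p = 0.299). In 4 of 5 microvesicle arrays this brightest probe set lay below the array median, so the size of its fall is uncertain. The dim ATP11A probe sets 241603_at (0.97, limma adjusted p = 0.00859) and 241604_at (0.72, limma adjusted p = 0.0092) rose as deposited. They did not pass after loess (0.60 and 0.22), and the remaining ATP11A probe sets did not pass as deposited. The calcium-activated scramblase gene ANO6 fell by 1.96 ± 0.21 (limma adjusted p = 5.46e-06, -1.28 after loess), while its dim probe set 240947_at did not pass (0.29, limma adjusted p = 0.339). PLSCR1 fell by 1.40 ± 0.27 (limma adjusted p = 0.00074), but not after quantile normalization (-0.57, limma adjusted p = 0.105). Its probe set 202430_s_at fell too (-1.51, limma adjusted p = 6.95e-05). Its probe set 244315_at, below the array median on 5 arrays of each group, rose as deposited (0.69, limma adjusted p = 0.00376). After loess that rise did not pass (0.07, limma adjusted p = 0.756). XKR8, the scramblase gene activated by caspases, rose by 0.64 ± 0.21 (limma adjusted p = 0.0183; 1.35 after loess), and missed the threshold with median centring (0.48, limma adjusted p = 0.0681). ATP8A1 was dim in both groups, with 2.68 in cells and 2.89 in microvesicles, and did not pass.

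**Figure D5:**
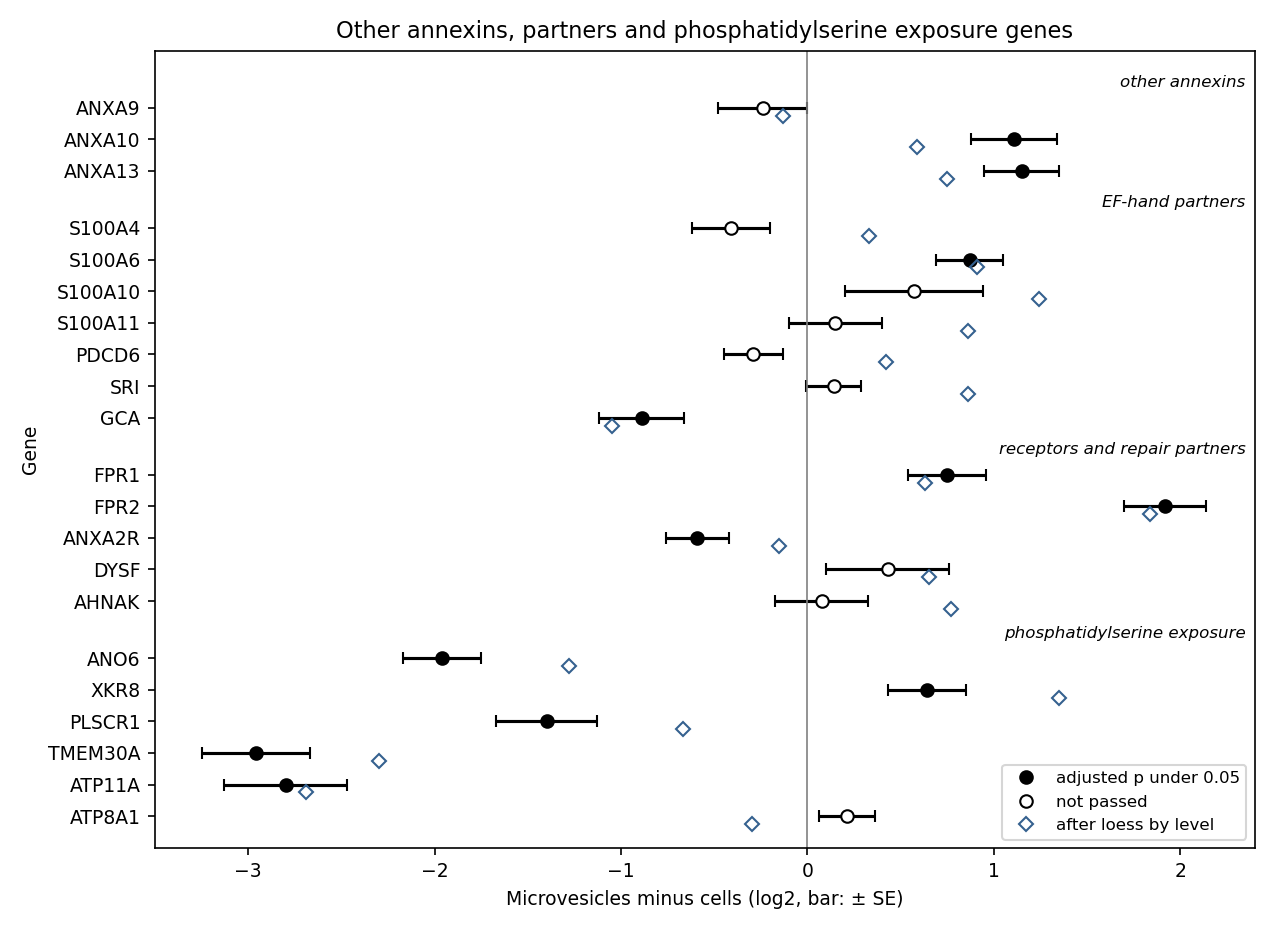
Change from cells to microvesicles on the log2 scale (horizontal axis, bars ± SE) for 21 other annexins, partners and phosphatidylserine exposure genes (vertical axis), filled where the limma adjusted p was under 0.05, with the change after loess by level as diamonds. TMEM30A (-2.96), ATP11A (-2.80) and ANO6 (-1.96) lie farthest to the left and FPR2 (1.92) farthest to the right, with ATP11A below the array median in 4 microvesicle arrays and FPR2 in all 5 cell arrays.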

How the data were processed

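The deposited table holds log2 values per probe set that the authors made with RMA, the 1 tool named by the submitters' processing notes. Which version they ran is not stated there. RMA as usually run makes probe intensity distributions of arrays alike, so a different total amount of RNA in microvesicles is not visible. The spread of the deposited values still differed between the groups, and whether all 10 arrays were normalized together is not stated. Depth does not apply to arrays: their number limits the precision, and no detection call was given. Symbols came from the platform annotation (41091 probe sets with 1 gene, 1801 with several, 11721 with none listed), updated through the gene number in the RefSeq table for 41037. After 17 control probe sets were left out, limma 3.58.1 in R 4.3.3 compared 5 microvesicle with 5 cell arrays over 54613 probe sets, 2-sided, with Benjamini-Hochberg adjustment. A gene was read from its probe set with the highest mean over the 10 arrays. Differences between changes were tested by exact permutation of the arrays (252 arrangements). The linear model was tested on simulated data. The members, lists and tests were chosen with earlier results of these data known, so they are no independent support. All members were named, as were partner genes past the threshold, up to 4 that were not (more are given here, chosen after their values were seen) and the 5 genes most correlated with the annexin of largest change. Of 24 listed partner genes 21 were read, and 1 of the others is not reported here. Alternatives covered scaling, filters at 4 and 6, variance and weight settings, a rank sum test, the replicate block and leaving out each array.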

Additional observations from a re-analysis of the deposited data

Results flagged for a closer look

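In 4 of 76 groups of 5 arrays tested, 1 array stood apart from the other 4 by a gap of more than 0.71 of the group's range. Chance marks about 1 in 20 such groups. ANXA4 (201301_s_at) was at 5.15 in microvesicles replicate 2, against 6.06 to 6.39 in the other microvesicle arrays. ANXA11 (206200_s_at) was at 9.05 in the same array, against 9.37 to 9.48. ANXA11 (214783_s_at) was at 4.33 in microvesicles replicate 5, against 5.82 to 6.06. S100A10 was at 5.71 in microvesicles replicate 1, against 7.41 to 7.89.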

How the results depend on the processing

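Of 326 values of annexin probe sets under an alternative, 271 kept their direction and side of the threshold, 21 lost the call, 15 gained it and 19 changed sign, mostly small changes of bright or dim probe sets. The 10 falls became 6 after loess by level and 5 after quantile normalization, and the 1 rise became 2 after loess and with a filter at 4. The median of -0.45 became -0.61 with median centring, -0.08 after quantile normalization, 0.053 after loess and -0.66 with a filter at 6, where 13 probe sets remain. Over all probe sets the median of 0.27 became 0.11, 0.12, 0.03 and -0.92 in the same order. With the filter at 6 the annexin median thus lay above that of all probe sets. Leaving out 1 array gave 8 to 12 falls, 1 to 2 rises (2 without microvesicles replicate 1 or 3) and medians of -0.48 to -0.41. It gave 5 to 7 differences within genes and 5 to 16 between annexins. The 6 partner rises became 10 after quantile normalization, 11 after loess and 1 with a filter at 6, and 6 to 7 without 1 array, with 6 to 7 falls. Over all probe sets 34076 passed, 19318 higher and 14758 lower, against 13032 and 16492 with median centring, 10282 and 10111 after quantile normalization, 10582 and 12110 after loess, 8654 and 14341 with a filter at 4 and 1575 and 10224 with a filter at 6. The filters test fewer probe sets; the cause of the other shifts was not tested.

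Signs changed after loess for ANXA1 201012_at (0.35), ANXA2 201590_x_at (0.24), 210427_x_at (0.25) and 213503_x_at (0.33), ANXA7 209860_s_at (0.053), ANXA11 206200_s_at (0.51), S100A4 (0.33), PDCD6 (0.42) and ATP8A1 (-0.30). After quantile normalization they changed for ANXA1 201012_at (0.12), ANXA2 213503_x_at (0.031), ANXA3 (0.15), ANXA11 206200_s_at (0.36), S100A4 (0.37), PDCD6 (0.20) and ATP8A1 (-0.25). With median centring they changed for ANXA6 200982_s_at (-0.14), S100A11 (-0.01), SRI (-0.017) and AHNAK (-0.083), and with the mean of probe sets for SRI (-0.58). ANXA6 200982_s_at was negative without cells replicate 1 (-0.089) or 5 (-0.017) or microvesicles replicate 2 (-0.13), 3 (-0.025) or 4 (-0.026). ANXA2 1568126_at ran from -0.076 to 0.042 and was positive without cells replicate 2 (0.042) or microvesicles replicate 2 (0.0018) or 4 (0.03), and AHNAK negative without microvesicles replicate 1 (-0.10) or 5 (-0.012).

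Deviations of same-numbered samples correlated at -0.025 to 0.108, and 4 of 5 cell samples but 3 of 5 microvesicle samples correlated best with their own number. This is a hint of pairing from the data, which the labels do not give, and the numbers were not treated as pairs. With the replicate block 8 annexin probe sets fell and 1 rose: the bright ANXA2 probe sets did not pass (limma adjusted p = 0.053 for 201590_x_at, 0.0623 for 210427_x_at and 0.112 for 213503_x_at), and ANXA3 (0.0326) and S100A10 (0.0437) did. Exchanging labels only within numbers gives 32 arrangements and a smallest p of 0.0625, so 0 differences within genes and 0 between annexins could pass (5 of 9 and 12 of 28 had an unadjusted exact p under 0.05 without the block).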
